A study of Mus musculus with 12 samples.

Results

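Elastic fibres are the stretchable part of the extracellular matrix, and 10 mouse genes of these fibres were followed here in aortic tissue: Eln, Fbn1, Fbn2, Fbln5, Efemp2, Lox, Loxl1, Emilin1, Mfap4 and Mfap2. They were listed by gene symbol, and each gene was read from the array's transcript cluster, a set of probes along one transcript, that carried that symbol alone. By this rule 8 of the 10 genes were measured, each by 1 cluster, out of 22180 genes in all, and Fbn1 and Efemp2 were not analysed here. RNA of dissected aorta was read on 12 arrays, 3 for each of 4 groups. The 129 root group held the aortic root of 129S6/SvEvTac mice in pools of 6 animals, and the 129 arch group held the aortic arch of the same strain in pools of 5. The DBA arch group held the arch of DBA/2J mice in pools of 5, and the B6 arch group the arch of C57BL/6 mice, with 4 animals in replicate 1 and 5 in each of the others. All animals were male, 2 to 5 months old and fed regular chow. The protocols call the mice wild type, whereas the design text of the series attaches apoe to each strain name, and the free text of the root samples says arch while their titles and tissue entries say root. The titles and tissue entries were used. The root was sampled in 129 mice only, and nothing in the labels says whether root and arch came from the same animals or whether pools of a group held different ones, so the tests below measure the spread between pools. Values are log2 intensities, and a difference of 1 is a factor of 2.

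In an artery, smooth muscle cells secrete elastin as a soluble precursor that is laid onto a scaffold of microfibrils and cross-linked into concentric lamellae, which let the wall recoil after each beat. Fibrillins and microfibril-associated glycoproteins build the scaffold, fibulins carry elastin to it, and lysyl oxidases make the cross-links. Most elastin is laid down around birth and in early life, and very little is replaced afterwards.

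Promoter windows are shown for Emilin1, Mfap2 and Fbln5, 3 of the 8 measured members, and the rule that left members out is given with the processing. Mfap2 and Fbln5 have 2 annotated starts each, and 1 window of each is printed. Each window is RefSeq sequence of build GRCm38.p6, written in the direction of transcription, with 250 bases before and 50 after an annotated start, and capitals mark a motif. The windows are chr5:30913536-30913835 on the plus strand for Emilin1, chr4:141010431-141010730 on the plus strand for Mfap2 and chr12:101819070-101819369 on the minus strand for Fbln5.
Emilin1: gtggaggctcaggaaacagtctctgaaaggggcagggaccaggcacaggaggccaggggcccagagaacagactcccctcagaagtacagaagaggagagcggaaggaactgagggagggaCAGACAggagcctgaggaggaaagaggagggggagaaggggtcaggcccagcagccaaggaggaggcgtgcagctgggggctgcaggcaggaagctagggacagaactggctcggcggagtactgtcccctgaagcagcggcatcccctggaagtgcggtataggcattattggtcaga
Mfap2: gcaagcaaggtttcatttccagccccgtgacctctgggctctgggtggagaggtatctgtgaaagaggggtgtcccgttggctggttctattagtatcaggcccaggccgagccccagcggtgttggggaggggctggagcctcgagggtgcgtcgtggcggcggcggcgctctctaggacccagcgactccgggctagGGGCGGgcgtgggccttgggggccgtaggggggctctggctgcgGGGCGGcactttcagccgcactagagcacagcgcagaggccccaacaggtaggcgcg
Fbln5: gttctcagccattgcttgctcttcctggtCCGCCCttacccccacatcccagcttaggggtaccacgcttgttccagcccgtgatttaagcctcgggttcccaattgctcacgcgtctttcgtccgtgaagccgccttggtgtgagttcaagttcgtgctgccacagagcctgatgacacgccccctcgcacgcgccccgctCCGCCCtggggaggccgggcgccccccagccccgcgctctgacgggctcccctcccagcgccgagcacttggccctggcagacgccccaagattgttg
The capitals in Emilin1 are its 1 match to CAGACA, a SMAD element, at bases -129 to -124 from the start, and it held no GC box, GGGCGG. Mfap2 held 2 GC boxes, at -51 to -46 and at -7 to -2, and no SMAD element. Fbln5 held 2 GC boxes on the opposite strand, read there as CCGCCC, at -221 to -216 and at -48 to -43. The second windows, not printed, held the reverse: that of Mfap2 had 1 SMAD element at -216 to -211 on the opposite strand, that of Fbln5 had 1 at -15 to -10, and neither had a GC box. The motifs thus differed between starts of the same gene. Mfap2 and Fbln5 held the same number of each motif in their printed windows, and again in their second windows. Both strands were searched and no 2 matches overlapped. None of the 5 windows held TATAAA or a CArG box, the site known for serum response factor. Among 32851 windows of this length over all genes, 35.7% held a GC box, 21.0% the SMAD element, 13.6% TATAAA and 1.6% a CArG box. The GC content of the printed windows was 61.7% for Emilin1, 68.0% for Mfap2 and 65.7% for Fbln5, against a median of 52.7% over all windows. The second windows of Mfap2 and Fbln5 lay below that median, at 52.0% and 48.7%. A match is a run of letters and not a tested site.

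**Figure D1:**
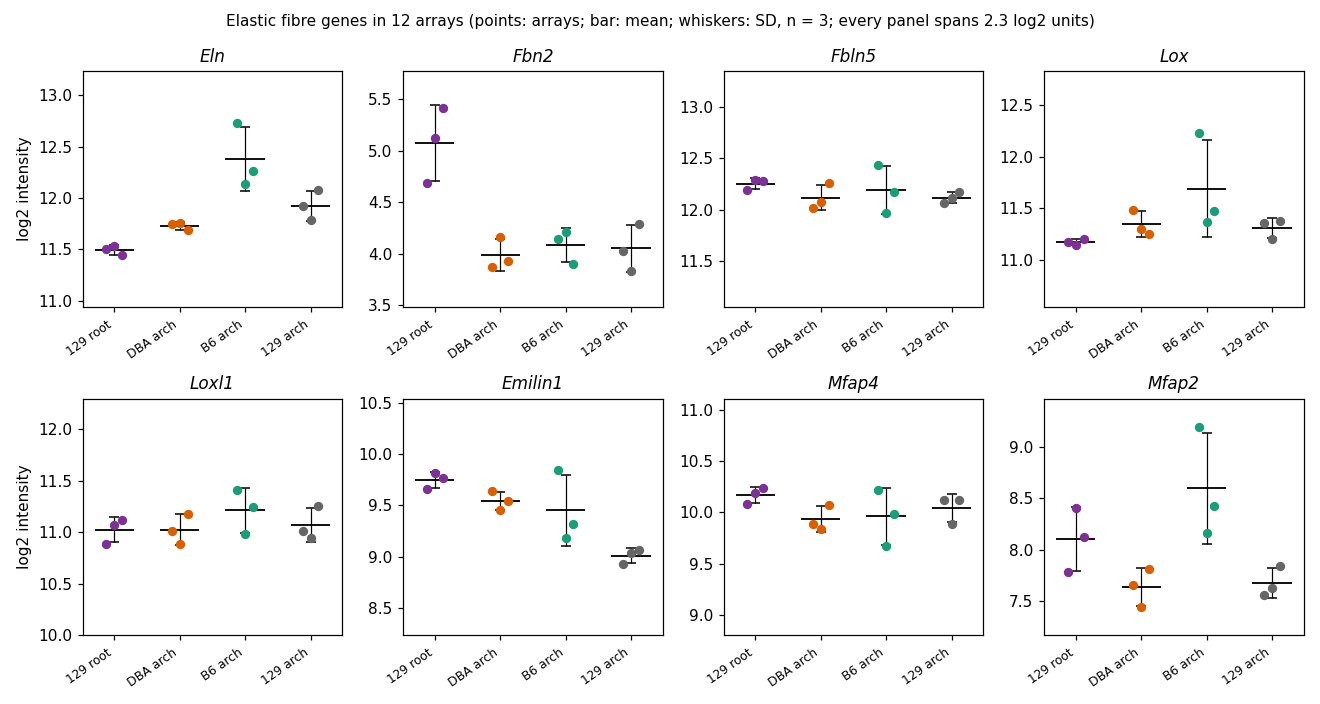
Log2 intensity of 8 elastic fibre genes on each of 12 arrays, in the 129 root, DBA arch, B6 arch and 129 arch groups. Points are arrays, horizontal bars are group means and whiskers are 1 SD (n = 3), and all panels span the same log2 distance on different levels. By their means, Fbn2, Emilin1, Fbln5 and Mfap4 were highest in the 129 root, and Eln, Lox and Loxl1 were lowest there. For Fbln5, Mfap4, Lox and Loxl1 the root arrays overlapped those of the group next in order. One B6 arch array stood above the rest for Eln, Lox and Mfap2.

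In 129 mice the aortic root differed from the arch for 3 of the 8 genes. Emilin1 and Fbn2 were higher in the root, by 1.66-fold and 2.04-fold, and Eln was lower there, at 0.742-fold of the arch. The other 5 genes did not pass an adjusted p of 0.05. Over all genes tested, 8.36% were higher and 7.45% lower in the root at this threshold. The median log2 difference of the 8 genes was 0.13, against 0.00 over all genes. In pooled tissue, fewer cells that make a transcript and less of it per cell cannot be told apart.

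Elastin itself, the core of the fibre, was read at 11.51, 11.54 and 11.44 in the 3 root arrays, against 11.92, 11.78 and 12.08 in the 129 arch arrays. All root arrays lay below all arch arrays, and root replicates spanned a narrower range. The mean was 11.50 ± 0.05 in the root and 11.93 ± 0.15 in the arch (SD, n = 3 each), a log2 difference of -0.43 ± 0.10 (SE, 95% interval -0.67 to -0.19, limma adjusted p = 0.0305). This call was not stable: it was lost without arch replicate 1, arch replicate 3 or any single root replicate (adjusted p = 0.0712 to 0.109) and held only without arch replicate 2 (0.0281). It was also lost when all 12 arrays shared 1 estimate of the spread (0.0850) and when the replicate number was fitted as a block (0.0780), while the root stayed lower in every one of these fits.

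Among the microfibril genes, Fbn2 encodes the fibrillin that prevails in fetal tissue. It was read at 4.68, 5.13 and 5.42 in the root, against 4.03, 3.84 and 4.29 in the 129 arch. The root arrays all lay above the arch arrays, but these are dim readings, since the medians of whole arrays ran from 4.68 to 4.82, and calls of detection were not used here. The log2 difference was 1.03 ± 0.20 (SE, 95% interval 0.54 to 1.51, limma adjusted p = 0.0158). Without arch replicate 1, arch replicate 2 or root replicate 2 the adjusted p was 0.0511, 0.0516 and 0.0544.

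Mfap2, also known as MAGP-1, encodes a small glycoprotein on the outside of microfibrils. It was read at 7.79, 8.41 and 8.12 in the root, against 7.55, 7.63 and 7.84 in the 129 arch. The lowest root array lay within the range of the arch arrays. The log2 difference of 0.43 ± 0.17 did not pass (SE, limma adjusted p = 0.143). Mfap4, which encodes a glycoprotein that binds elastin and microfibrils, overlapped as well, with 10.08 to 10.24 in the root and 9.88 to 10.12 in the arch (log2 difference 0.13, limma adjusted p = 0.463).

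Emilin1 encodes a glycoprotein at the interface of elastin and microfibrils. It was read at 9.66, 9.81 and 9.77 in the root, against 8.93, 9.04 and 9.07 in the 129 arch. The gap between the groups was wider than the range within either. The log2 difference was 0.73 ± 0.09 (SE, 95% interval 0.52 to 0.95, limma adjusted p = 0.00200). This call held under all 14 alternatives, with a highest adjusted p of 0.0134.

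Fbln5, a fibulin that tethers elastin to cells and to microfibrils, was read at 12.19, 12.28 and 12.28 in the root, against 12.06, 12.11 and 12.17 in the 129 arch. Its root arrays all lay above the arch arrays, yet the log2 difference was only 0.14 (95% interval -0.06 to 0.33, limma adjusted p = 0.333). Groups that do not overlap were common in this comparison: 35.8% of all genes showed it, and 4 of the 8 elastic fibre genes. Lox, the lysyl oxidase that cross-links elastin and collagen, was read at 11.18, 11.14 and 11.20 in the root, against 11.36, 11.20 and 11.37 in the arch. The groups met at a single pair of arrays, and the log2 difference was -0.14 (95% interval -0.35 to 0.07, limma adjusted p = 0.366). Loxl1, a lysyl oxidase relative that acts on elastin, ran from 10.88 to 11.12 in the root and from 10.95 to 11.26 in the arch, with a log2 difference of -0.05 (95% interval -0.33 to 0.23, limma adjusted p = 0.834).

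**Figure D2:**
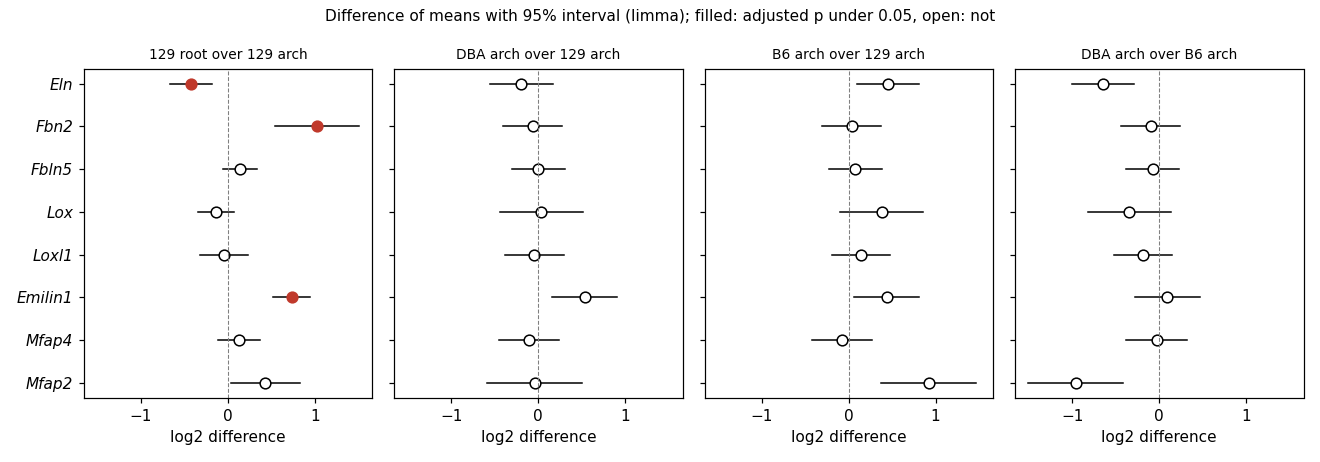
Log2 difference of group means for 8 elastic fibre genes in 4 comparisons, with 95% intervals from limma (n = 3 arrays a group). Filled points have an adjusted p under 0.05 over all genes: Eln, Fbn2 and Emilin1 in the root comparison, and no gene in the comparisons of strains.

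The comparisons of strains asked which genes of the arch differ between DBA, B6 and 129 mice, and none of the 8 elastic fibre genes passed in any of them by limma. The genes farthest apart were Emilin1, higher in both DBA and B6 arch than in 129 arch, and Eln and Mfap2, highest in B6 arch. All genes gave passing shares of 1.44% for DBA over 129, 1.45% for B6 over 129 and 1.55% for DBA over B6. At an unadjusted p under 0.05 the count was 1 for DBA over 129, 3 for B6 over 129 and 2 for DBA over B6, against 2654, 2673 and 2771 of the 22180 genes. The methods' Tukey-Kramer test gave 1, 1 and 2 at an unadjusted threshold of 0.05 and 0, 0 and 0 after Benjamini-Hochberg adjustment. Of the 22180 genes it gave 1547, 1514 and 1659 without adjustment and 73, 57 and 81 with it. The comparisons against 129 use the same 129 arch arrays, and both comparisons of each strain use that strain's arrays, so their values are not independent.

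Emilin1 was read at 9.64, 9.46 and 9.54 in DBA arch and at 9.85, 9.19 and 9.32 in B6 arch, against 8.93, 9.04 and 9.07 in 129 arch. No array of DBA or B6 came down to the 129 arrays, whereas DBA and B6 overlapped. The log2 difference was 0.53 ± 0.17 for DBA over 129 (SE, 95% interval 0.16 to 0.91, limma adjusted p = 0.211). For B6 over 129 it was 0.44 ± 0.17 (SE, 95% interval 0.06 to 0.81, limma adjusted p = 0.320). Without B6 arch replicate 1, the spread shared by the 3 strains was smaller, and the difference of DBA over 129, still 0.53, then passed (adjusted p = 0.0384). The difference of B6 over 129 was 0.24 without that array (adjusted p = 0.464).

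Eln was read at 11.75, 11.76 and 11.69 in DBA arch and at 12.73, 12.14 and 12.26 in B6 arch, against 11.92, 11.78 and 12.08 in 129 arch. The strains did not overlap, with B6 above 129 and 129 above DBA, but the lowest 129 array stood only just above the highest DBA array. The log2 difference was -0.65 ± 0.16 for DBA over B6, or 0.639-fold (SE, 95% interval -1.01 to -0.29, limma adjusted p = 0.0981). It was 0.45 ± 0.16 for B6 over 129 (SE, limma adjusted p = 0.286) and -0.20 ± 0.16 for DBA over 129 (SE, limma adjusted p = 0.721). Without B6 arch replicate 1 the difference was -0.47 for DBA over B6 (adjusted p = 0.106) and 0.27 for B6 over 129 (0.438). Taking in the root, the means of Eln ran in the order B6 arch, 129 arch, DBA arch and 129 root, and no neighbours in this order overlapped.

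Mfap2 was read at 7.65, 7.44 and 7.81 in DBA arch and at 9.19, 8.16 and 8.43 in B6 arch, against 7.55, 7.63 and 7.84 in 129 arch. Every B6 array lay above all DBA and 129 arrays, which overlapped each other. The log2 difference was -0.96 ± 0.24 for DBA over B6 (SE, 95% interval -1.51 to -0.41, limma adjusted p = 0.106). It was 0.92 ± 0.24 for B6 over 129, or 1.89-fold (SE, 95% interval 0.37 to 1.47, limma adjusted p = 0.133). Without B6 arch replicate 1 these differences were -0.66 (adjusted p = 0.0822) and 0.62 (0.132).

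Groups that did not overlap were found for 2 of the 8 genes in DBA over 129 (Emilin1 higher and Eln lower), against 20.9% of all genes. They were found for 3 in B6 over 129 (Eln, Emilin1 and Mfap2, all higher), against 17.5%, and for 2 in DBA over B6 (Eln and Mfap2, both lower), against 17.1%. The other 5 genes overlapped between strains in every comparison. Fbn2 stayed between 3.84 and 4.29 on all 9 arch arrays, and its largest log2 difference between strains was -0.10 (DBA over B6, 95% interval -0.44 to 0.24). The intervals of Fbln5, Loxl1 and Mfap4 for B6 over 129 ran from -0.23 to 0.38, from -0.19 to 0.48 and from -0.43 to 0.27.

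Lox was read at 11.49, 11.30 and 11.25 in DBA arch and at 12.23, 11.37 and 11.47 in B6 arch, against 11.36, 11.20 and 11.37 in 129 arch. Apart from 1 B6 array at 12.23, all readings of the arch lay within 11.20 to 11.49. The log2 difference of B6 over 129 was 0.38 ± 0.21 (SE, limma adjusted p = 0.555) and 0.11 without that array (0.836).

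That array, B6 arch replicate 1, was the highest of the 3 B6 arrays for 7 of the 8 genes, all but Fbn2, and the highest of the 9 arch arrays for the same 7. Its log2 distance above the mean of the other B6 arrays was 0.90 for Mfap2, 0.81 for Lox, 0.59 for Emilin1 and 0.53 for Eln. For Mfap4, Fbln5 and Loxl1 it was 0.39, 0.36 and 0.30, and for Fbn2 0.09. The median over the 8 genes was 0.46, against 0.00 over all genes, of which 38.7% were highest on this array among the 3 B6 arrays. The share of all genes highest on it among the 9 arch arrays was not taken. Other lists also stood high there, matrix genes or not: the median distance was 0.51 for 12 collagen chains of the vessel wall, 0.33 for 20 relatives of the microfibril proteins and fibulins, 0.54 for mesothelial, 0.54 for macrophage, 0.44 for cartilage and 0.35 for adventitial fibroblast markers. It was -0.91 for T cell markers and 0.14 for smooth muscle markers. The T cell sums were 387, 377 and 1488 on B6 arch replicates 1, 2 and 3, so that replicate 3 stood apart and not replicate 1. The mesothelial sums were 746, 322 and 711, with replicate 2 low and the others close. The pool of B6 arch replicate 1 held 4 mice, 1 fewer than the other arch pools. Its summed signal of 10 hepatocyte markers was 12202, against 268 to 582 on the other 8 arch arrays, with Alb, the serum albumin gene, at 12.75 on the log2 scale. Its summed signal of 8 adipocyte markers was 5074, against 14026 to 24640 on the other 8 arch arrays. The part of these cells in the result was not tested.

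**Figure D3:**
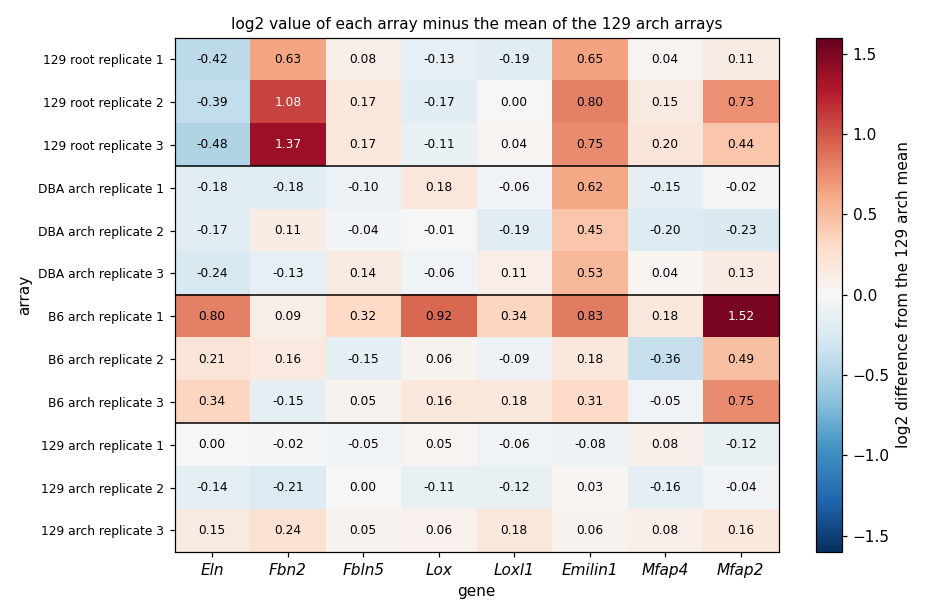
Log2 value of 8 elastic fibre genes on 12 arrays minus the mean of the 129 arch arrays, with red above and blue below that mean. The B6 arch replicate 1 row is red for all genes and reaches 1.52 for Mfap2, Emilin1 is above the mean on every root, DBA and B6 array, and Eln is below it on every root and DBA array.

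Across the 9 arch arrays the 8 genes form 28 pairs, and the median Pearson r over these pairs was 0.53. It was 0.036 without B6 arch replicate 1, so that this median rested on that array, though not every pair did, as given below for Eln and Mfap2. After the mean of each strain was subtracted the median was 0.77, in residuals that hold the same array. Mfap2 was the gene of the 8 most like Eln, with r = 0.94 and Spearman rho = 0.72 (n = 9 arrays), 0.82 without B6 arch replicate 1 and 0.66 without the 2 arrays farthest from the median of Eln. It ranked 18 among 11089 genes brighter than the median gene. Lox followed with r = 0.86, or 0.52 without B6 arch replicate 1. Emilin1 had r = 0.31 with Eln, and -0.41 without that array. The 5 genes most like Eln were Nfya, a subunit of a CCAAT-binding factor, C1qtnf6, Adamtsl2, Apba1 and Sulf2, all with r = 0.96 over the 9 arrays and 0.89 to 0.93 without B6 arch replicate 1. These are descriptions across arrays that share strains and pools.

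Of 71 measured genes on 6 lists of related proteins, 18 were higher and 1 was lower in the 129 root than in the arch, against 8.36% higher and 7.45% lower over all genes. The list of microfibril and fibulin relatives had 5 of 20 higher and none lower, with a median log2 difference of 0.16. Mmrn1, which encodes multimerin 1 of the same protein family as Emilin1, was read at 8.95, 9.39 and 9.24 in the root and 6.22, 7.51 and 7.39 in the arch (log2 difference 2.15 ± 0.33, SE, limma adjusted p = 0.0056). Adamtsl2, which binds fibrillin and latent TGF-beta binding protein, was 1.64 higher, Fbln1 1.01, Ltbp2 0.57 and Adamtsl4 0.40. The call of Adamtsl4 was lost in 9 of 14 alternatives, among them each single array left out but arch replicate 3 (adjusted p up to 0.152). Among 13 cross-linking and assembly helpers, 2 were higher and none lower, with a median of 0.04. These were Tll1, a protease of the BMP1 family that activates lysyl oxidase, by 1.05, and Atp7a, which supplies copper to lysyl oxidases, by 0.76. With lists this short, 2 of 13 is near the share over all genes.

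The 6 proteoglycans that bind elastic fibres had 3 higher and none lower and a median log2 difference of 0.80. Lum was read at 11.46, 11.84 and 11.74 in the root and 10.07, 10.23 and 10.14 in the arch, a difference of 1.53. Fmod, which like Lum regulates collagen fibrils, was 1.49 higher and Vcan, the large hyaluronan-binding proteoglycan, 1.29. Lum also stands on the list of adventitial fibroblast markers. Of 12 elastin-degrading proteases 4 were higher and none lower, with a median of 0.18. Ctss, a cathepsin of macrophages, was 1.58 higher, Mmp12, the macrophage elastase, 0.82, Mmp2 0.63 and Mmp14 0.50. The readings of Mmp12 were dim, at 4.88 to 5.01 in the root and 3.71 to 4.52 in the arch, against array medians of 4.68 to 4.82. The call of Mmp12 was lost in 5 of 13 alternatives, 4 of them the fits without arch replicate 2 or without any 1 root replicate (adjusted p up to 0.187 over all 13), and that of Mmp14 in the fit of all 12 arrays. Of 8 protease inhibitors, A2m was 1.85 higher, Timp1 1.29 and Timp3 0.37, and Timp4 was 1.91 lower on the log2 scale. The arch readings of A2m, 4.04 to 4.41, were dim as well. The call of Timp3 was lost in 8 of 14 alternatives, among them every single array left out (adjusted p up to 0.103). The list's median was 0.04. Of 12 collagen chains only Col8a1 passed, with 9.19, 9.50 and 9.62 in the root and 6.58, 7.37 and 7.23 in the arch, a difference of 2.38, and the median was 0.10. This count too is near the share over all genes.

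**Figure D4:**
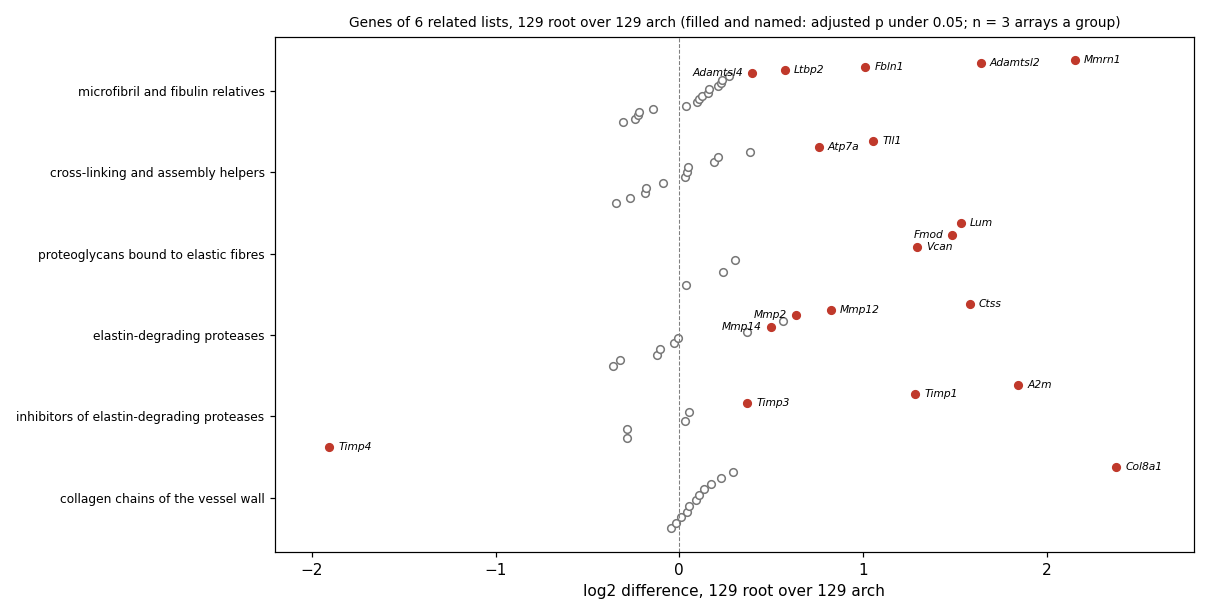
Log2 difference of the 129 root over the 129 arch for 71 genes on 6 lists related to elastic fibres (n = 3 arrays a group), each point a gene. Filled and named points passed an adjusted p of 0.05, 18 to the right of 0 and Timp4 to the left.

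Between strains, 2 of the 71 genes passed, both higher in DBA arch over 129 arch and over B6 arch, where 1.44% and 1.55% of all genes passed. Mfap3l, a relative by name of the microfibril genes that encodes a membrane protein, was read at 6.28, 6.21 and 6.27 in DBA arch and at 5.09, 5.42 and 5.21 in B6 arch, against 5.05, 5.10 and 5.49 in 129 arch. Its log2 difference was 1.04 over 129 (limma adjusted p = 0.00871) and 1.01 over B6 (0.0109). The call over 129 was lost in 1 of 20 alternatives (adjusted p up to 0.106). The call over B6 was lost in 3 of 20 (adjusted p up to 0.118), among them the fit without B6 arch replicate 3 (0.0530). Mmp3, or stromelysin-1, was read at 8.69, 9.01 and 9.48 in DBA arch and at 7.33, 7.40 and 7.37 in B6 arch, against 6.82, 7.38 and 7.50 in 129 arch. The log2 difference was 1.82 over 129 (limma adjusted p = 0.00482) and 1.69 over B6 (0.00779). Each of these calls of Mmp3 was lost in 1 of 21 alternatives (adjusted p up to 0.113 and 0.139). No gene of the lists passed for B6 over 129.

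Markers of the wall were present on all arrays: Acta2, smooth muscle actin, was read at 13.23 to 13.34, and the summed signal of 17 contractile genes was 63937 to 66303 in the 129 root and 62219 to 63538 in the 129 arch, with Des, desmin, higher and Actg2 lower in the root. Other cell types moved with the region. Over all genes, 8.36% were higher and 7.45% lower in the root. Of 14 cardiomyocyte markers 12 were higher in the root (summed signal 20487 to 32032 in the root, 1691 to 2857 in the arch), as were 5 of 14 cartilage markers (2739 to 3346 in the root, 712 to 902 in the arch), 7 of 8 mesothelial (1884 to 2216 in the root, 437 to 710 in the arch) and 10 of 12 macrophage markers (6852 to 7676 in the root, 2630 to 3816 in the arch). Adventitial fibroblast markers had 6 of 12 higher and 1 lower (27485 to 29086 in the root, 19628 to 21255 in the arch), and endothelial markers 4 of 13 higher and 3 lower (12437 to 13217 in the root, 10342 to 11396 in the arch). All 8 adipocyte markers were lower in the root (1877 to 2921 in the root, 18024 to 21143 in the arch), as were 8 of 9 T cell markers (283 to 352 in the root, 1281 to 2491 in the arch). Of 10 hepatocyte markers 1 was higher and 1 lower (1394 to 1746 in the root, 294 to 379 in the arch), of 8 lung markers 1 was lower (165 to 170 in the root, 174 to 272 in the arch), and of 13 cell cycle genes none passed (1490 to 1676 in the root, 1452 to 1563 in the arch). Most of the hepatocyte sum in the root was Ahsg, at 10.31 to 10.65 there and 6.97 to 7.54 in the arch. Alb was lower in the root, at 3.73 to 4.45 against 4.91 to 6.61 in the arch. Between strains at most 2 genes of any marker list passed, among them 2 of 17 contractile genes, Des and Actg2, lower in B6 arch than in 129 arch. Over all genes, 1.44% to 1.55% passed between strains. The summed T cell signal was 436 to 853 in DBA arch and 377 to 1488 in B6 arch, against 1281 to 2491 in 129 arch, with median log2 differences of -1.48 for DBA over 129 and -1.37 for B6 over 129. Of 9 T cell markers 8 did not overlap between DBA and 129, 7 of them lower in DBA. In this comparison 20.9% of all genes did not overlap, in either direction. The cell cycle sum was 1171 to 1278 in DBA arch and 1203 to 1617 in B6 arch, against 1452 to 1563 in 129 arch, with 7 of 13 genes lower in DBA arch without overlap with 129 arch. The macrophage sum was 3747 to 4325 in DBA arch and 3844 to 5641 in B6 arch, against 2630 to 3816 in 129 arch. Among the arch arrays, DBA arch replicate 2 stood apart with a cardiomyocyte sum of 36419 and a lung sum of 8076, against at most 2857 and 440 on the other 8. It was the lowest of the 3 DBA arrays for 4 of the 8 elastic fibre genes and the highest for 2. The shares over all genes were not taken, so these counts are not read as a result. Without both this array and B6 arch replicate 1 no elastic fibre gene passed between strains, with Emilin1 for DBA over 129 at a log2 difference of 0.58 (limma adjusted p = 0.0678). The part of other cell types in the differences of the elastic fibre genes was not tested.

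**Figure D5:**
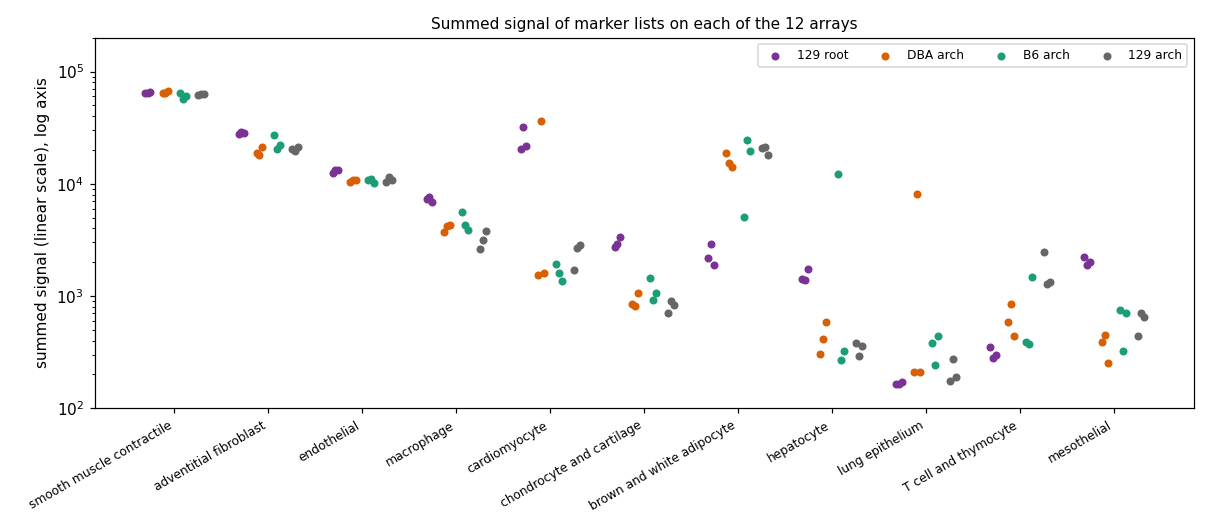
Summed signal of 11 marker lists on each of the 12 arrays, on a log axis, in the 129 root, DBA arch, B6 arch and 129 arch groups. Smooth muscle sums were nearly level, cardiomyocyte, cartilage, macrophage and mesothelial sums were higher in the 129 root than in the 129 arch, and B6 arch replicate 1 and DBA arch replicate 2 stood apart for hepatocyte and lung markers.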

How the data were processed

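Total RNA of pooled aortic tissue (250 ng) was hybridised by the authors to 1-colour Affymetrix Mouse Gene 2.1 ST arrays. The deposited table holds log2 expression values of 41345 transcript clusters, made by the authors with Affymetrix Expression Console. Neither the version nor the normalisation is named (not given in the sources used here), and calls of detection were not used. Values ran from 0.67 to 13.6, and array medians from 4.68 to 4.82. The number of arrays limits the precision. Symbols came from the platform annotation: 23521 clusters had 1 symbol, 1820 had several and 16004 had none. Of 22180 genes, 1082 had more than 1 cluster, and 1 was kept for each, the brightest by its mean over the 12 arrays. Probe sequences were not used, so the part of strain variants under probes was not tested.

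Strains were compared in 1 fit over the 9 arch arrays, and root with arch over the 6 arrays of 129 mice, with the lmFit and eBayes functions of limma (version 3.58.1, R version 4.3.3; two-sided, Benjamini-Hochberg over all genes, threshold 0.05). The procedure was tested on simulated data. The methods of the study name a one-way comparison with the Tukey-Kramer test, which was run as an alternative for the strains. The members and the lists of related and marker genes were chosen with earlier results of these data known. Named were all members, the passing genes of each related list where 5 or fewer passed (otherwise the 4 with the largest difference), the 5 genes with the highest Pearson r with Eln over the arch arrays, and, of the 3 brightest genes of each marker list, only those beside a result. Outside this rule, Des and Actg2 were named as contractile genes that passed. Summed signals are sums of values taken back to the linear scale. Promoter windows came from the RefSeq table of build GRCm38.p6. Those of 3 of the 8 members were used, and members on chromosome 18 were left out. Alternatives covered the filter on dim genes, scaling, the variance prior, array weights, the arrays in the fit, the cluster rule, a replicate block and each array left out.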

Additional observations from a re-analysis of the deposited data

How the results depend on the processing

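With 3 pools a group, only differences large against the pool spread could pass. No difference that passed changed sign under any alternative, and 28 of 958 values of single genes did so. Leaving out 1 array at a time gave 1 to 2 elastic fibre genes passing for the root over the arch in 129 mice, against 3 (1, Emilin1, without 129 arch replicate 1 or 129 root replicate 2), 0 to 1 for DBA over 129 (Emilin1, without B6 arch replicate 1), and 0 for B6 over 129 and for DBA over B6. The Tukey-Kramer test without adjustment gave 1, 1 and 2 for DBA over 129, B6 over 129 and DBA over B6. For B6 over 129, array weights gave 1 (Mfap2, adjusted p = 0.0199), where 1412 of all genes passed against 322 in the main fit. For DBA over B6, a robust trended prior gave 1 (Eln, 0.0378), with 273 of all genes higher and 241 lower. Array weights gave 2 (Eln, 0.0244, and Mfap2, 0.0213), where 1348 of all genes passed against 344 in the main fit. All 12 arrays in 1 fit gave 1 (Eln, 0.0354), with 366 of all genes higher and 305 lower.

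Over all genes, the counts passing were 3508 for root over arch (2212 to 4493 over the alternatives), 320 for DBA over 129 (73 to 568), 322 for B6 over 129 (57 to 1412) and 344 for DBA over B6 (81 to 1348), all at an adjusted p. The Tukey-Kramer test gave the lowest of these counts between strains, and 1547, 1514 and 1659 without adjustment. For root over arch, a robust trended prior gave 9 microfibril and fibulin relatives against 5, 5 proteoglycans against 3 and 3 collagen chains against 1, the genes brighter than the median gave 3 collagen chains, and 1 fit of all 12 arrays gave 2 proteases against 4.

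The replicate numbers of the titles do not say that samples share animals, so same-numbered arrays were not taken as pairs. Their deviations correlated at -0.089 to 0.111 over all comparisons, at 0.042 to 0.054 for root over arch and at 0.051 to 0.062 for DBA over 129. With the number as a replicate block, 2 elastic fibre genes passed for root over arch (Fbn2 and Emilin1) and 0 in each comparison of strains. All 6 arrays correlated best with their own number for root over arch and for DBA over 129, 2 of 6 for B6 over 129 and 0 of 6 for DBA over B6. What same-numbered arrays might share was not tested.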
